A study of Mus musculus with 7 samples.

Results

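Alveolar macrophages, which clear particles and surfactant from the airspaces of the lung, carry transcripts of several genes better known from epithelial cell junctions and the epithelial cytoskeleton. A set of 10 such genes is described here, out of 27179 genes in the deposited table: Cdh1, Epcam, Ctnna1, Ctnnb1, Ctnnd1, Tjp1, Perp, Krt19, Krt78 and Krt79. They were chosen by name with the result of the genotype comparison already known. Their levels and differences between genotypes are therefore given as a description. No p-value of theirs in this contrast is printed, and whether edgeR called them is stated as a property of the table, not as evidence. The macrophages were sorted by flow cytometry from lungs of lethally irradiated C57BL/6-Ly5.1 recipients. In the Suz12 cKO group (3 libraries), 90% of the donor marrow was Suz12 cKO on the Ly5.2 allele. In the wild type group (4 libraries), 90% was wild type Ly5.2 marrow. Both groups also received 10% wild type Ly5.1 competitor marrow. The Cre driver, the deleted exons, the age of the mice and whether competitor cells were gated out were not given in the sources used here.

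Suz12 is a core subunit of polycomb repressive complex 2 (PRC2), which silences genes by methylating histone H3 and is known in mammals to gather at CG-rich promoters. E-cadherin, the product of Cdh1, joins neighbouring cells at adherens junctions and is tied to actin through p120-catenin, beta-catenin and alpha-catenin. EpCAM is a separate epithelial adhesion molecule. Keratins form filaments from paired type I and type II chains. E-cadherin and EpCAM are also known from Langerhans cells, the resident phagocytes of the epidermis, so neither protein is restricted to epithelium.

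The libraries held between 48104653 and 79281431 counts. Each total was above the range of reads per sample stated in the sources used here, and the cause was not tested. Values are CPM, counts normalized to library depth with TMM scaling, unless RPKM (CPM per kilobase of gene length) is named. Suz12 averaged 20.3 ± 4.53 CPM in Suz12 cKO and 63.9 ± 8.92 CPM in wild type (SD, n = 3 and n = 4). Suz12 cKO replicates 1 and 2 and wild type replicate 2 held more RNA from outside the macrophages. Summed haemoglobin was 39.7 to 146 CPM in these 3, called high in tissue RNA below, and 1.94 to 3.72 CPM in the other 4. The high libraries thus include 1 wild type library and the low ones 1 Suz12 cKO library. A comparison within either subset therefore has no replicate in 1 genotype. The macrophage markers Chil3, Ear2 and Itgax, the 3 highest by CPM of 16 listed, averaged 19467, 3992 and 3308 CPM in Suz12 cKO. They averaged 17223, 2743 and 2083 CPM in wild type. Of the 16, 7 were called higher in Suz12 cKO and 2 lower, by the rule given below, beside 6.28% and 4.02% of all tested genes. These calls include Krt79, higher, and Krt19, lower, which were chosen with this contrast known. In bulk RNA, fewer cells carrying a transcript and less of it per cell cannot be told apart.

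A gene was called when its adjusted p was under 0.05 in edgeR's quasi-likelihood test over 14436 tested genes. Of the 10 genes, 10 passed the filter on low counts, 5 were called higher in Suz12 cKO, 2 lower, and 3 were not called. Over all tested genes, 6.28% were called higher, 4.02% lower and 10.3% in either direction. The genotype ranges did not overlap for the same 7 genes, 5 with Suz12 cKO higher and 2 with it lower. Among all tested genes, 14.1% had non-overlapping ranges with Suz12 cKO higher and 11.5% with it lower. Since the genes were selected on this contrast, nothing is read from these shares. Their median log2 fold change was 0.17, against 0.00 over all tested genes. The members nearest the calling threshold were Ctnna1 on the called side and Ctnnd1 on the other, with log2 fold changes of 0.42 and -0.19.

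**Figure D1:**
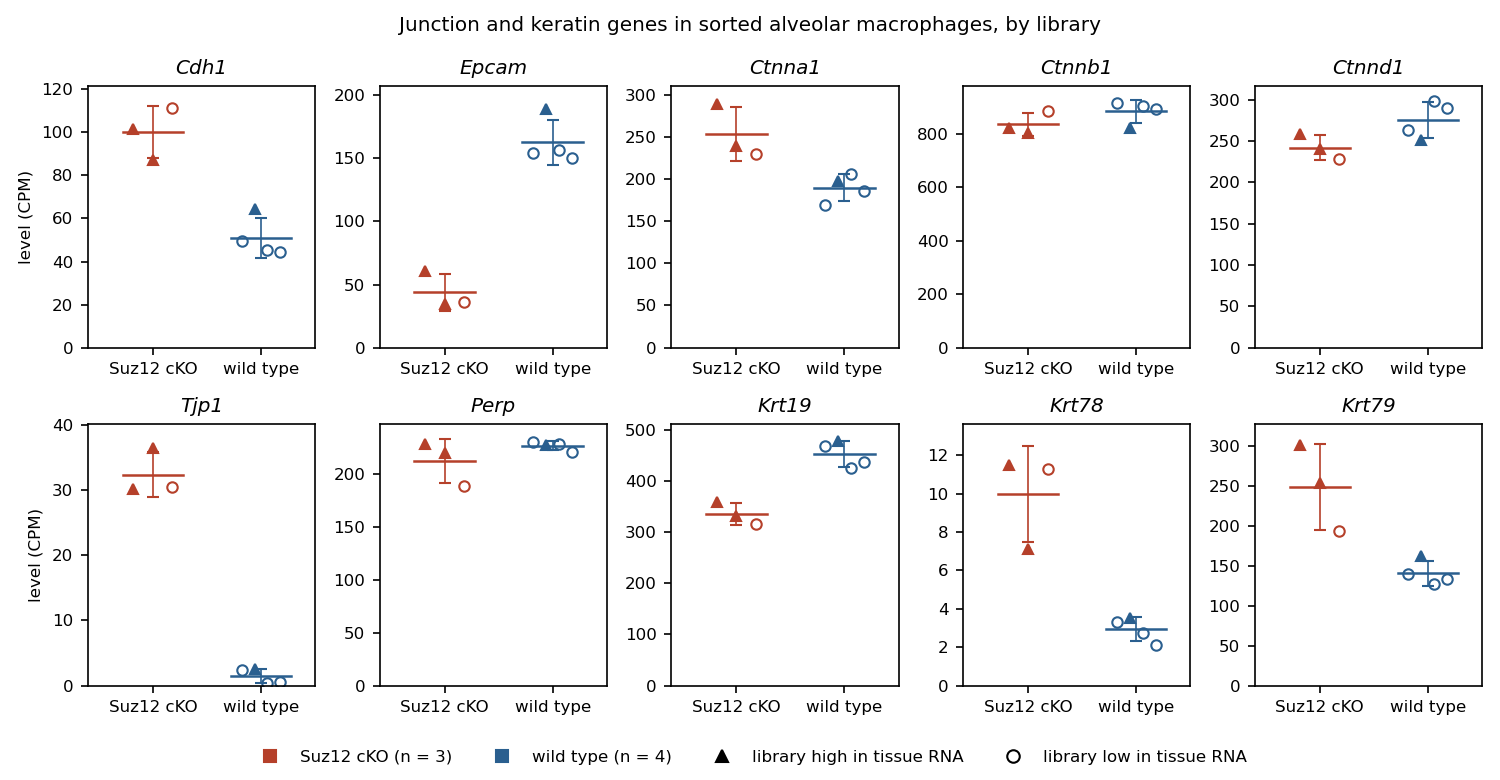
Level of each gene in CPM (linear axes from 0) in each library of Suz12 cKO (left, n = 3) and wild type (right, n = 4); lines are means, error bars are SD, and filled triangles are libraries high in tissue RNA. The genotypes separate for Cdh1, Epcam, Ctnna1, Tjp1, Krt19, Krt78 and Krt79 and overlap for Ctnnb1, Ctnnd1 and Perp.

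Cdh1 and Epcam, the 2 adhesion receptors, differed in opposite directions. Cdh1 (chromosome 8, 106603350 to 106670247 in GRCm38.p6) stood at 102, 87.4 and 112 CPM in Suz12 cKO, against 49.7, 64.4, 45.1 and 44.6 CPM in wild type. Each Suz12 cKO library was above each wild type library, and the highest wild type library was the one high in tissue RNA. The log2 fold change was 0.97 (SE 0.15), a 1.96-fold higher level. It was 1.25 within the 4 libraries low in tissue RNA and 0.55 within the 3 high ones.

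Epcam (chromosome 17, 87635979 to 87651127) stood at 60.4, 34.8 and 36.1 CPM in Suz12 cKO, against 155, 189.6, 156 and 150.1 CPM in wild type. The groups were far apart, with the highest Suz12 cKO library below the lowest wild type library. The log2 fold change was -1.89 (SE 0.21), a level 3.72-fold higher in wild type. Within the low and the high libraries it was -2.10 and -1.99.

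Because E-boxes of the form CACCTG, or CAGGTG when read on the opposite strand, are known binding sites of the ZEB and SNAIL repressors of epithelial genes, the Epcam window before the start site is shown with that motif in capitals. It is the 250 bases upstream, chr17:87635729-87635978 on the plus strand, from RefSeq on GRCm38.p6.
Epcam: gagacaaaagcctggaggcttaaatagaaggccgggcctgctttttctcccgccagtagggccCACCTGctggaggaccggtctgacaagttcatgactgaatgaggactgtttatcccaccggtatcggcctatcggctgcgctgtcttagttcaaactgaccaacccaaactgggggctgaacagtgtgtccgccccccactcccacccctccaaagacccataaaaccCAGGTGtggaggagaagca
The motif's first base lies 187 and 19 bases before the start. Both strands were searched, and 17.2% of 32851 windows of the same length hold at least 1 match and 2.06% hold 2 or more. A match is a description of letters, not a measured site.

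A scale per length allows levels of different genes to be compared. On it, Epcam and Cdh1 were far apart in wild type and close in Suz12 cKO. Epcam averaged 21.2 ± 7.0 RPKM in Suz12 cKO and 78.9 ± 8.80 RPKM in wild type (SD, n = 3 and n = 4). Cdh1 averaged 22.7 ± 2.75 RPKM in Suz12 cKO and 11.6 ± 2.10 RPKM in wild type. The ratio of Epcam to Cdh1 was 1.27, 0.852 and 0.694 in the Suz12 cKO libraries, against 6.66, 6.30, 7.42 and 7.20 in the wild type libraries. In Suz12 cKO the ranges of the 2 genes overlapped, while in wild type Epcam was above Cdh1 in each library.

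**Figure D2:**
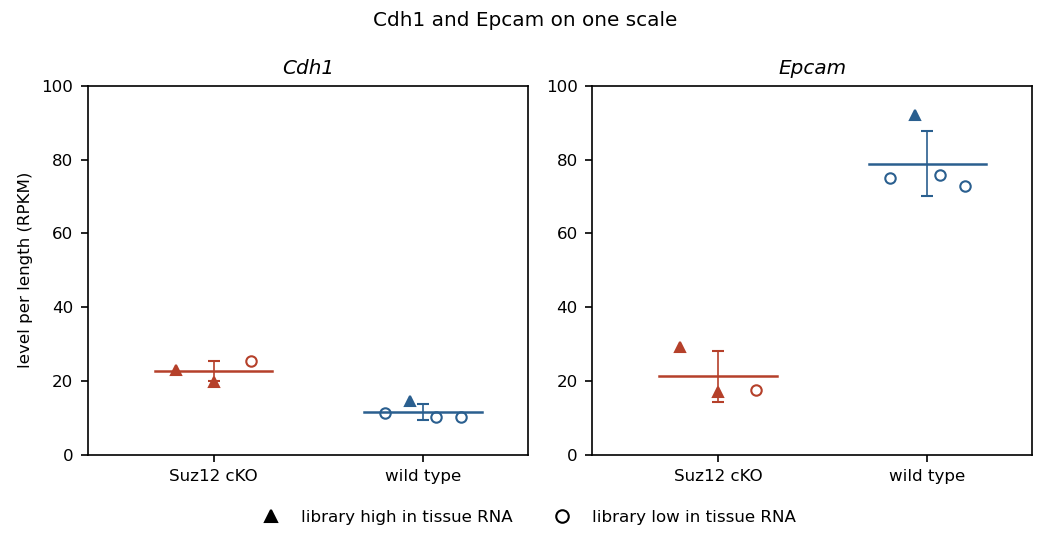
Level per length (RPKM, linear axis from 0) of Cdh1 and Epcam in Suz12 cKO (left in each panel, n = 3) and wild type (right, n = 4); lines are means and error bars SD. Epcam averages 21.2 and Cdh1 22.7 RPKM in Suz12 cKO, while in wild type Epcam averages 78.9 and Cdh1 11.6 RPKM.

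The catenins, which link cadherins to actin, differed little beside Cdh1. Ctnna1, encoding alpha-catenin (chromosome 18, 35118902 to 35254776), stood at 289.8, 240.0 and 230.3 CPM in Suz12 cKO, against 169, 198, 206 and 186 CPM in wild type. The ranges did not overlap, and the log2 fold change was 0.42 (SE 0.11). This call sat close to the threshold and was lost in 11 of 17 alternative settings. Ctnna1 overlaps Lrrtm2, which reached at most 0.259 CPM, and Gm46617, which is not in the table.

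Ctnnb1, encoding beta-catenin, the cadherin partner that also acts in Wnt signalling (chromosome 9, 120933400 to 120960507), stood at 821, 803 and 885 CPM in Suz12 cKO, against 917, 823, 904 and 893 CPM in wild type. The groups overlapped, with a log2 fold change of -0.08 (SE 0.08) and an interval of 2 SE either side from -0.23 to 0.07. Ctnnd1, encoding p120-catenin, which stabilises cadherins at the membrane (chromosome 2, 84587096 to 84658977), stood at 258, 240.1 and 228 CPM in Suz12 cKO, against 264, 251, 298 and 289.5 CPM in wild type. Its groups overlapped too, with a log2 fold change of -0.19 (SE 0.09) and an interval from -0.38 to 0.00. Per length, the ratio of Ctnnb1 to Cdh1 averaged 10.2 ± 0.834 in Suz12 cKO and 21.7 ± 4.19 in wild type.

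Tjp1, encoding the tight junction scaffold ZO-1, had the widest difference of the 10 genes. It lies on chromosome 7, 65296165 to 65527850. Its level was 30.2, 36.4 and 30.5 CPM in Suz12 cKO, against 2.37, 2.51, 0.460 and 0.536 CPM in wild type. The wild type libraries fell into a pair above 2 CPM and a pair below 1 CPM, and all 4 were far below each Suz12 cKO library. The log2 fold change was 4.44 (SE 0.59), or 21.8-fold. It was 4.72 within the libraries low in tissue RNA and 3.73 within the high ones.

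The Tjp1 window is shown with each CG in capitals, since CG-rich promoters are where PRC2 is known to gather; PRC2 binding was not measured here. It is chr7:65371245-65371494 on the minus strand (RefSeq, GRCm38.p6), and this start lies inside the annotated gene.
Tjp1: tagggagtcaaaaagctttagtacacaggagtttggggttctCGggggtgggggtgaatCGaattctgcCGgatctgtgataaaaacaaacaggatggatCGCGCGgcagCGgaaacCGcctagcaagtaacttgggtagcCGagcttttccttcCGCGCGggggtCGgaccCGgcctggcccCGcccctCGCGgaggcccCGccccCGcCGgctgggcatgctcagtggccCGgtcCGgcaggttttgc
The window holds 22 CG dinucleotides, against a median of 6 over 32851 windows, and 85.2% of windows hold fewer. The Ctnnb1 windows hold 35 and 43, the Ctnnd1 windows 26 and 3, and those of Epcam, Krt78 and Krt79 hold 8, 6 and 3. RefSeq windows were matched for 6 of the 10 genes. High CG counts thus stood before Tjp1, which was called. They also stood before Ctnnb1 and, in the window with 26, before Ctnnd1, neither of which was called. The called genes Epcam, Krt78 and Krt79 had lower counts.

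Perp, a membrane protein needed for desmosomes in mouse skin (chromosome 10, 18845071 to 18857073), stood at 229, 220.0 and 189 CPM in Suz12 cKO, against 230.4, 227, 229 and 221 CPM in wild type. The groups overlapped. The log2 fold change was -0.10 (SE 0.09), with an interval of 2 SE either side from -0.28 to 0.09.

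The 3 keratin genes did not move together. Krt19, encoding a type I keratin (chromosome 11, 100140810 to 100145926), stood at 358, 330.3 and 316 CPM in Suz12 cKO, against 467, 478, 425 and 437 CPM in wild type. Each Suz12 cKO library was below each wild type library, with a log2 fold change of -0.43 (SE 0.09). Its call was lost in 4 of 17 alternative settings, while its direction held in all 17.

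Krt79, encoding a type II keratin (chromosome 15, 101929332 to 101940324), stood at 301, 254 and 194 CPM in Suz12 cKO, against 140.5, 163, 127 and 133 CPM in wild type. The groups did not overlap, and in each genotype the libraries high in tissue RNA were above the low ones. The log2 fold change was 0.82 (SE 0.15), and 0.52 within the low and 0.77 within the high libraries. Krt78, its type II neighbour (chromosome 15, 101946001 to 101996624), stood at 11.5, 7.10 and 11.3 CPM in Suz12 cKO, against 3.31, 3.51, 2.76 and 2.12 CPM in wild type. These ranges were apart as well, with a log2 fold change of 1.77 (SE 0.28). Within the libraries high in tissue RNA it was 1.41.

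The 2 neighbouring keratin genes are separated by 5676 bases, and their windows are shown with the same E-box in capitals. They are chr15:101940325-101940574 for Krt79 and chr15:101954288-101954537 for Krt78, both on the minus strand (RefSeq, GRCm38.p6); the Krt78 start lies inside its annotated gene.
Krt79: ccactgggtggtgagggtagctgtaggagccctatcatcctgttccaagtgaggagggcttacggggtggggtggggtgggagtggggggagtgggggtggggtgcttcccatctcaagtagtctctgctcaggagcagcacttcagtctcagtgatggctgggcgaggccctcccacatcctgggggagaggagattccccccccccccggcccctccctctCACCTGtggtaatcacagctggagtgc
Krt78: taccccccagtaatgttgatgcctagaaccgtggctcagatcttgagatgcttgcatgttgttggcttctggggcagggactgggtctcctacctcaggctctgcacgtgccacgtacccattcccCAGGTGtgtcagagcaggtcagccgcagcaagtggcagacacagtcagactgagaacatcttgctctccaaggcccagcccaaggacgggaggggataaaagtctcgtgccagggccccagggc
Each holds 1 match, 27 bases before the start in Krt79 and 124 bases before it in Krt78. The windows of Tjp1, Ctnnb1 and Ctnnd1 hold none. No window was matched for Cdh1, Ctnna1, Perp and Krt19, so these were not searched. Of 6 other keratin genes within 100000 bases, 4 stayed below 1 CPM in each library and the highest, Krt1, reached 5.16 CPM.

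Per length, Krt19 was the most abundant of the 10 in both genotypes, at 243 ± 15.4 RPKM in Suz12 cKO and 329 ± 18.1 RPKM in wild type. In Suz12 cKO it was followed by Ctnnb1, Krt79, Perp, Ctnna1, Ctnnd1, Cdh1, Epcam, Tjp1 and Krt78. The ranges of Krt19 and Ctnnb1, of Krt79 and Perp, and of Cdh1 and Epcam overlapped there. In wild type the order was Krt19, Ctnnb1, Perp, Epcam, Krt79, Ctnna1, Ctnnd1, Cdh1, Krt78 and Tjp1, with overlap between Epcam and Krt79 and between Ctnna1 and Ctnnd1. The ratio of Krt19 to Krt79 averaged 2.09 ± 0.352 in Suz12 cKO and 4.91 ± 0.298 in wild type (SD, n = 3 and n = 4).

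**Figure D3:**
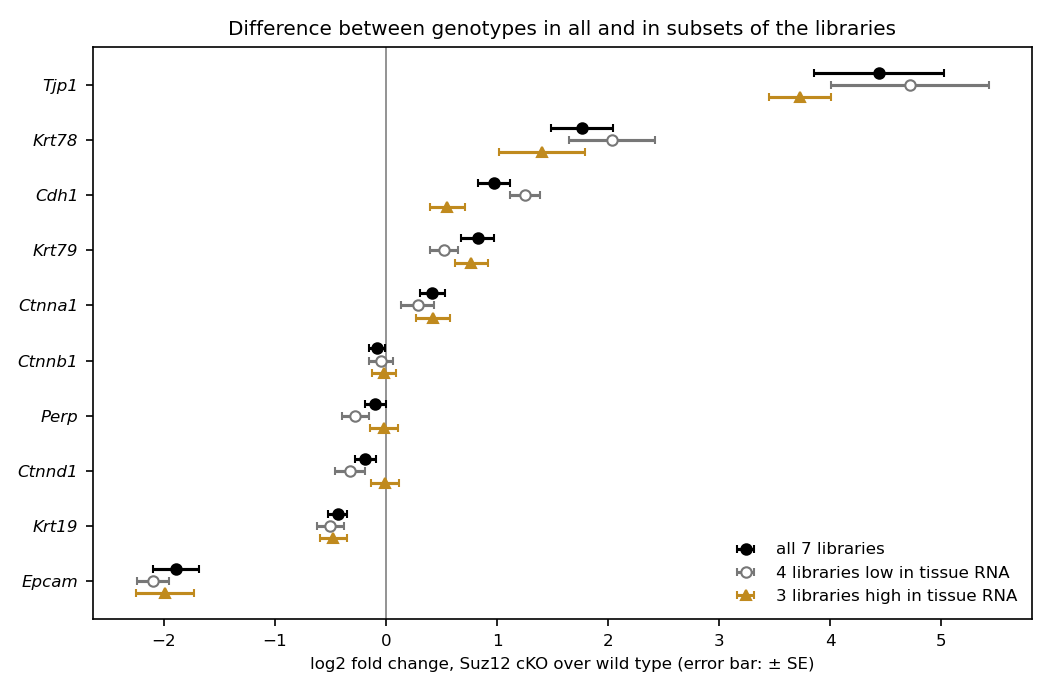
Log2 fold change of Suz12 cKO over wild type for each gene (error bars, SE) in all 7 libraries, in the 4 low in tissue RNA and in the 3 high in tissue RNA. Each of the 7 called genes keeps its direction in both subsets, and Cdh1 is at 1.25 in the low and 0.55 in the high libraries. In each subset 1 genotype has 1 library, so the error bars there do not measure spread in that genotype.

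Epithelial cells could carry these transcripts into a lung sort, so their markers were read in the same libraries. Sftpc, a surfactant gene of alveolar type II cells, stood at 4.53, 9.08 and 0.00 CPM in Suz12 cKO, against 0.00, 10.6, 0.00 and 0.04 CPM in wild type. Scgb1a1, a secretory gene of club cells, stood at 12.1, 37.0 and 0.476 CPM in Suz12 cKO, against 1.06, 46.8, 0.954 and 2.33 CPM in wild type. Both were high in the same 3 libraries, 2 of them Suz12 cKO. Summed type I markers were also higher in each of these libraries (301 to 353 CPM) than in each low one (162 to 258 CPM). So were summed general epithelial markers, at 7.40 to 11.5 CPM against 2.15 to 6.23 CPM. The sums of type II and of club and ciliated markers, mostly Lyz1 and Tppp3, did not follow this pattern. Of 47 epithelial marker genes, 30 were below 1 CPM in all 4 libraries low in tissue RNA, and 18 were higher in each high library than in each low one. Of the 47, 6 (Abca3, Cav1, Lyz1, Napsa, Pdpn and Tppp3) were above 30 CPM in each of the 7 libraries, and Cav1 and Pdpn were also among the 18. Of these 6, Napsa ran from 72.4 to 144 CPM, Tppp3 from 132 to 323 CPM and Lyz1 from 4618 to 6449 CPM. In the low libraries Epcam stood at 36.1 CPM in Suz12 cKO and at 150.1 to 156 CPM in wild type. The epithelial regulators Elf3 and Nkx2-1 reached at most 0.030 and 0.034 CPM in any library.

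With genotype held fixed, 2.85% of tested genes were called between libraries high and low in tissue RNA. None of the 10 genes was called in that edgeR comparison, which the choice of genes did not use. 1 of them, Krt79, had an unadjusted p under 0.05 (log2 difference 0.40, SE 0.10, adjusted p = 0.084). The log2 differences of the 10 genes ran from -0.13 to 0.61.

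**Figure D4:**
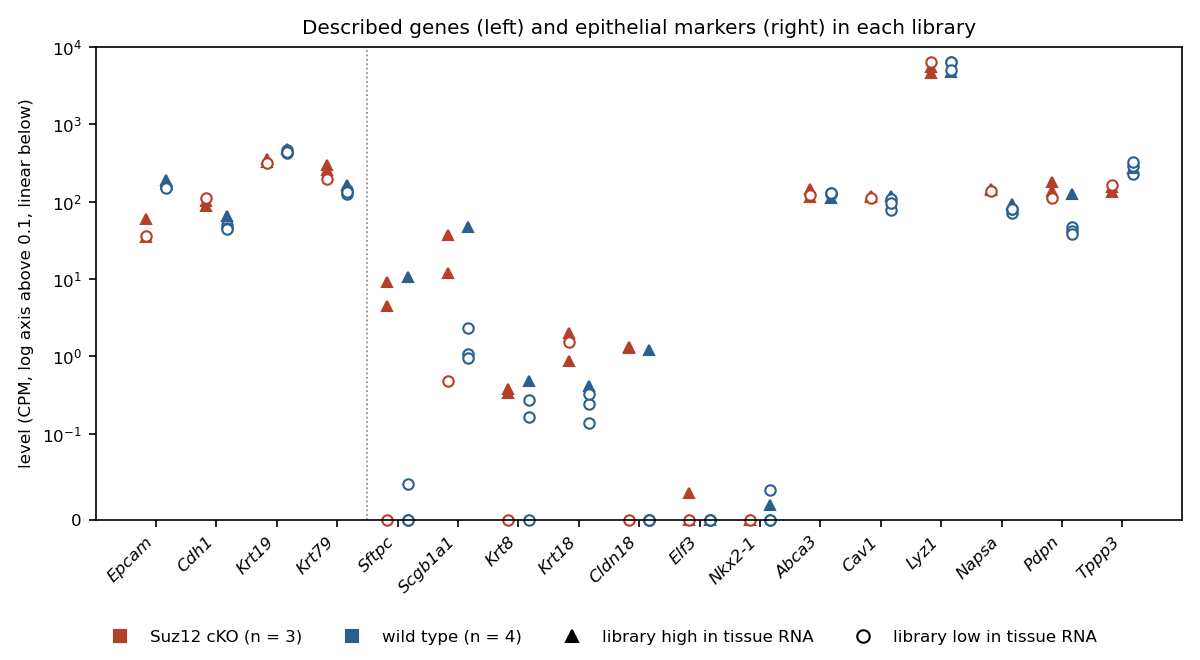
Level (CPM; log axis above 0.1, linear below) of 4 of the described genes and 13 genes from the epithelial marker lists in Suz12 cKO (left of each pair, n = 3) and wild type (right, n = 4); filled triangles are libraries high in tissue RNA. Sftpc, Scgb1a1 and Cldn18 are high in the triangles alone, while Epcam, Cdh1, Krt19 and Krt79, and also the listed markers Abca3, Cav1, Lyz1, Napsa, Pdpn and Tppp3, are above 30 CPM in each library.

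Markers of other cells were counted too. Among type II, type I, club and ciliated, and general epithelial markers, 1 of 12, 0 of 9, 1 of 7 and 0 of 8 tested genes were called, Napsa higher and Tppp3 lower. For type I and general epithelial markers, 1 and 2 genes had an unadjusted p under 0.05, and DESeq2 called 0 and 1. Summed general epithelial markers were 5.86 to 11.5 CPM in Suz12 cKO and 2.15 to 7.40 CPM in wild type. Endothelial, dendritic and red cell markers had 0 of 8, 0 of 8 and 0 of 4 called by edgeR, with 1, 0 and 0 at an unadjusted p under 0.05 and 1, 0 and 0 by DESeq2. Among fibroblast markers 1 of 5 was called, Pdgfra, and their sum was 32.4 to 42.2 CPM in Suz12 cKO and 0.206 to 22.7 CPM in wild type. Pdgfra made up most of the Suz12 cKO sum: the other 9 listed markers summed to 0.770 to 5.24 CPM in Suz12 cKO and 0.00 to 21.4 CPM in wild type, and Col3a1 and Dcn averaged 0.81 and 0.59 CPM in Suz12 cKO and 2.04 and 1.59 CPM in wild type. Alveolar macrophage markers, a list that holds Krt79 and Krt19, had 7 called higher and 2 lower of 16. The part of these markers in the differences described was not tested.

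Other junction, partner and regulator genes were counted from lists drawn from textbook knowledge, but with earlier results of these data known. Their counts and p-values are therefore given as a description. Of 178 such genes, 96 were tested; 13 (13.5%) were called higher in Suz12 cKO and 3 (3.13%) lower, beside 6.28% and 4.02% of all tested genes. Their median log2 fold change was 0.29. The 13 became 22 without wild type replicate 2, and 6, 7 and 7 without Suz12 cKO replicate 1, 2 or 3. Adherens junction partners had 3 of 14 called, all higher. Nectin2, an adhesion molecule of the immunoglobulin family, stood at 7.35, 11.6 and 11.5 CPM in Suz12 cKO, against 2.99, 2.74, 1.57 and 2.14 CPM in wild type (log2 fold change 2.10, edgeR adjusted p = 0.00390). The groups were apart. Wtip and Pkp4 rose by 1.93 and 0.65 on the log2 scale (edgeR adjusted p = 0.00955 and 0.0432), and the Pkp4 call was lost in 10 of 17 alternative settings.

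Tight junction genes, the list nearest to Tjp1, had 5 of 27 called higher and 2 lower. The claudin Cldn1 stood at 60.9, 66.7 and 68.8 CPM in Suz12 cKO, against 17.4, 30.9, 25.1 and 16.9 CPM in wild type (log2 fold change 1.54, edgeR adjusted p = 0.00286). Ocln, encoding occludin, rose by 1.19, Magi3 by 1.60 and Ybx3 by 0.61 (edgeR adjusted p = 0.0238, 0.0350 and 0.0447). Of 17 alternative settings, 4 lost the call of Ocln, 9 that of Magi3 and 7 that of Ybx3; Magi3 was at 0.88 within the libraries high in tissue RNA, and each of the 3 lost its call without any 1 Suz12 cKO replicate. Cldn23, named after its values were seen, was also called higher, at 16.9, 17.2 and 8.09 CPM in Suz12 cKO, against 1.16, 2.54, 0.375 and 0.00 CPM in wild type. Patj, a polarity scaffold, fell by 1.02, and Marveld2, encoding tricellulin, fell by 0.71 (edgeR adjusted p = 0.0113 and 0.0234); their calls were lost in 1 and 3 settings.

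Binding partners and proteases of EpCAM and E-cadherin had 2 of 15 called higher and 1 lower. The membrane protease gene St14, encoding matriptase, and the inhibitor gene Spint2 rose by 2.28 and 1.81 (edgeR adjusted p = 0.00583 and 0.00104). Cd9, a tetraspanin that binds EpCAM, fell by 0.46 (edgeR adjusted p = 0.0101). Spint2 stood at 37.7, 41.4 and 33.8 CPM in Suz12 cKO, against 12.6, 13.0, 8.92 and 8.47 CPM in wild type, with no overlap.

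Among repressors of Cdh1, 1 of 8 was called. Zeb1, a zinc finger repressor, stood at 19.0, 17.9 and 18.4 CPM in Suz12 cKO, against 3.97, 8.14, 2.88 and 3.46 CPM in wild type (log2 fold change 2.0, edgeR adjusted p = 0.00771). Zeb1 and Cdh1 were thus both higher, and Epcam lower, in the Suz12 cKO libraries. Among activators of the epithelial programme, 2 of 7 were called higher. Ovol2 rose by 2.05 (edgeR adjusted p = 0.00975), and Esrp1, a splicing regulator, stood at 1.07, 0.929 and 0.686 CPM in Suz12 cKO with no count in wild type. Against a floor of 3 counts over the wild type group, Esrp1 was at least 74.2-fold higher, as far as counting error goes. The Esrp1 call was lost in 6 alternative settings, namely without any 1 Suz12 cKO replicate, with the replicate block and within either tissue RNA subset. The Ovol2 call was lost in 3, namely without Suz12 cKO replicate 1, with the block and within the low libraries.

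The remaining lists had no call by edgeR. Other cadherins (4 tested) had 0 at an unadjusted p under 0.05 and 0 by DESeq2; beta-catenin partners (11 tested) had 4 and 2; desmosome genes (4 tested) had 2 and 2; other keratins (7 tested) had 1 and 1. Of 47 other keratins, 26 had no count in any library and 43 stayed below 1 CPM in each. Desmosome transcripts summed to 7.99 to 16.9 CPM in Suz12 cKO and 1.58 to 3.43 CPM in wild type.

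**Figure D5:**
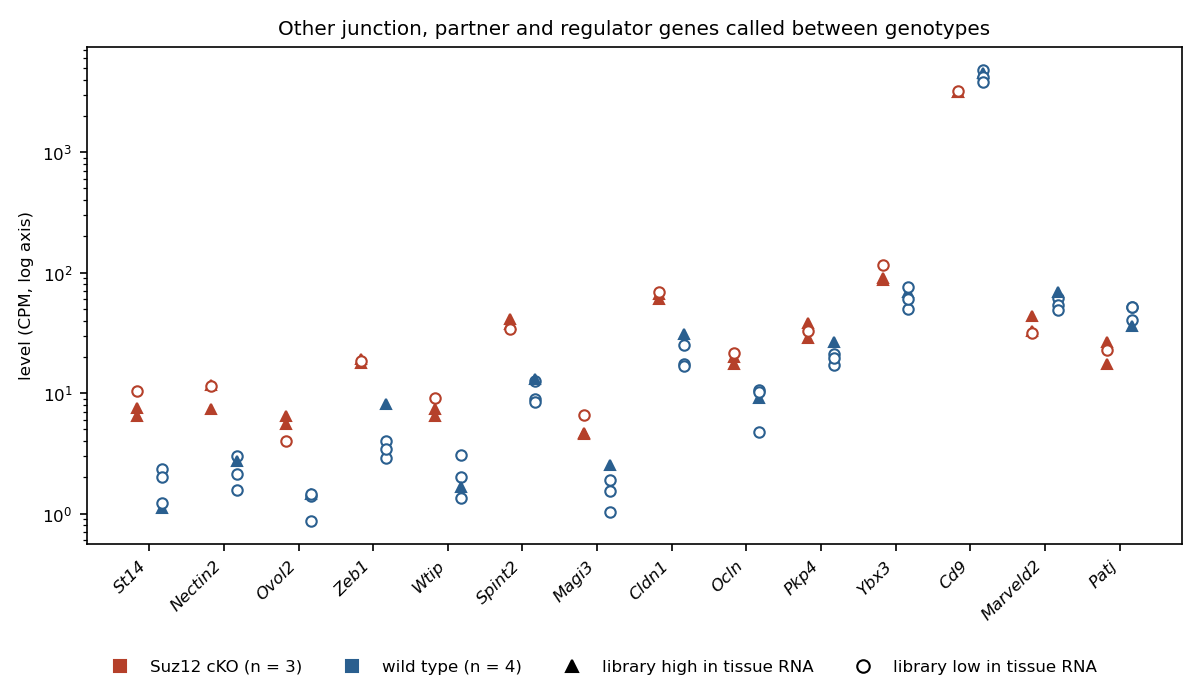
Level (CPM, log axis) of 14 other junction, partner and regulator genes called between genotypes, Suz12 cKO left of wild type; each point is a library and filled triangles are libraries high in tissue RNA. For 11 genes Suz12 cKO lies higher, and for Cd9, Marveld2 and Patj it lies lower.

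The genes whose pattern over the 7 libraries lay nearest to Cdh1 and to Epcam were found among 12935 tested genes by the root mean square difference of centred log2 CPM. Nearest to Cdh1 were Rasal2, Ankrd28, Adgrl2, Arhgap6 and Cemip2, with differences of 0.11 to 0.13. Nearest to Epcam were Spc24, Ccnb2, Mki67, Cmbl and Pkmyt1, with differences of 0.17 to 0.26. Mki67, for example, stood at 38.0, 33.5 and 28.8 CPM in Suz12 cKO, against 116, 115.6, 103 and 94.8 CPM in wild type. Likeness over 7 libraries that share 1 contrast is a description.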

How the data were processed

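Polyadenylated RNA of sorted alveolar macrophages was made into TruSeq libraries and read as single-end 85 bp reads, per the labels' protocols. The authors deposited whole-number read counts for each gene from featureCounts and mm10, per the submitters' processing notes. No source used here gives the aligner, annotation or strand setting, so reads of overlapping genes cannot be told apart. The deposited gene length in bases is of another kind and was used for RPKM. Symbols and positions came from RefSeq on GRCm38.p6: 25275 of 27179 genes matched, and 0.829% of counts had no symbol. The design text calls the samples biological replicates.

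The genes described and all gene lists were chosen with earlier results of these data known. Genes were filtered with filterByExpr (minimum count 10, minimum total 15), normalized by TMM and tested in edgeR 4.0.16 under R 4.3.3 (quasi-likelihood, genotype as the sole term), with Benjamini-Hochberg adjustment over 14436 genes. SE is the size of the log2 fold change over the square root of F. Limma 3.58.1 (voom) and DESeq2 1.42.0 were alternatives. Libraries with summed haemoglobin above 20 CPM were called high in tissue RNA. Other genes were named by rule: up to 6 called genes per junction list by smallest p, the 3 highest by CPM per cell type list, and the 5 nearest in pattern to Cdh1 and to Epcam. On simulated counts for 14436 genes, the fit found 43% of 100 genes changed 2-fold and 80% of 100 changed 4-fold, with 9 false among 132 calls. Library totals ran from 48104653 to 79281431, each above the upper end of the reads per sample stated in the sources used here. The cause of this conflict was not tested. Floors from counts, such as that of Esrp1, take the deposited counts as they are. Reads without molecular identifiers are not independent molecules, so floors cover counting error only. Replicates correlated with r from 0.916 to 0.969 across genes, and none was a copy of another.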

Additional observations from a re-analysis of the deposited data

Results flagged for a closer look

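In groups of 4 libraries, a library that stood far from the other 3 was looked for in 63 wild type groups, 1 for each gene named by rule. It was found in 12. Chance gives about 1 in 20 independent groups, but these groups share the same libraries. In addition, 3 of the 12 are the haemoglobin genes that set the tissue RNA label, so no excess is read from the 12. Among the 10 junction and keratin genes this concerned Epcam alone, at 189.6 CPM in wild type replicate 2 and 150.1 to 156 CPM in the other 3. Wild type replicate 2, which is high in tissue RNA, was also the highest for Pdpn at 124.5 CPM, Scgb1a1 at 46.8 CPM, Pecam1 at 3.61 CPM, Col3a1 at 8.16 CPM, Dcn at 6.35 CPM and Arhgap6 at 14.7 CPM. The haemoglobin genes Hba-a2, Hba-a1 and Hbb-bs were highest there too, at 20.7, 11 and 8.99 CPM. Cldn7 was highest in wild type replicate 1, at 0.896 CPM, and Ovol2 was lowest in wild type replicate 4, at 0.866 CPM. The Suz12 cKO group has 3 libraries and was not examined in this way.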

How the results depend on the processing

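For the 10 junction and keratin genes, 17 alternative settings gave 170 fold changes; 153 kept direction and call, 17 lost the call, and none changed sign. The 5 members called higher became 2 and the 2 called lower became 1 within the libraries high in tissue RNA (Cdh1, Ctnna1, Krt78 and Krt19 lost); 1 was called lower within the low libraries. Leaving out 1 library each gave 4 to 5 higher and 1 to 2 lower. Over all genes, 906 higher and 580 lower became 1393 and 848 with DESeq2, 616 and 367 within the low and 746 and 328 within the high libraries; leaving out 1 library gave 447 to 1515 higher and 268 to 885 lower, the upper ends without wild type replicate 2. With the replicate number as a block, 585 were higher and 278 lower, and members called were 4 higher and 1 lower; same-numbered libraries correlated with r of -0.041, 0.242 and 0.158, so the numbers were not taken as pairs, and not every library correlated best with its own number. Counts of the 13 and 3 called junction and partner genes were recomputed by a choice made after seeing the data: 26 higher with DESeq2, 7 within the low libraries, and 6 to 22 higher and 2 to 4 lower leaving out 1 library, with 22 without wild type replicate 2 and 6, 7 and 7 without each Suz12 cKO replicate. The other 31 named genes gave 526 fold changes, of which 65 lost and 7 gained a call (Arhgap6) with no change of sign; fold changes of uncalled cell type markers are not reported and were left out. Fewer libraries enter the subsets, and in each 1 genotype has 1 library, so calls within them do not measure spread in that genotype. Among the 10 junction and keratin genes, Tjp1 had the least precise fold change (SE 0.59), with 26 to 190 counts per wild type library.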
